A study of Homo sapiens with 10 samples.

Results

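Replication-dependent histone genes are the genes whose mRNAs end in a stem-loop instead of a poly(A) tail and are made during S phase, when newly replicated DNA has to be packed. They were taken as the GENCODE protein-coding genes with the symbols H1-1 to H1-6 or with H2AC, H2BC, H3C or H4C followed by digits, which gave 69 of 19962 protein-coding genes on chromosomes 1 to 22 and X. The members comprised 6 genes of the linker histone H1 and, for the core histones of the nucleosome, 17 genes of H2A, 18 of H2B, 13 of H3 and 15 of H4. Rb, the retinoblastoma protein, was mapped by CUT&RUN, in which an antibody on native chromatin directs a nuclease that releases the DNA at the bound protein. OVCAR-3 and Kuramochi, established lines of high-grade serous ovarian cancer without an engineered allele (labelled wild type), were kept for 2 days in 300 nM of INX-315, a CDK2 inhibitor, or in DMSO, its solvent. There were 2 Rb libraries per line and treatment and 1 IgG2a control library per line, from DMSO-treated cells.

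In the textbook account, CDK2 with cyclin E phosphorylates NPAT at the histone loci as cells enter S phase, and NPAT then drives transcription of all histone families at once. Each family has promoter elements of its own, such as the octamer of H2B genes, which POU2F1 (OCT1) recognizes, and the H4 site, which HINFP recognizes. Rb is best known at promoters with E2F sites, and phosphorylation by CDK4, CDK6 and CDK2 takes it away from E2F. Histone promoters are thus places where a CDK2 substrate other than Rb is the usual activator.

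The members lay in 7 loci (GRCh38, GENCODE release 44), joined where neighbours were at most 100000 bp apart. On chromosome 6 there were 32 members between 26017032 and 26285638, 16 between 27807479 and 27893891, 5 between 27125897 and 27147562 and 2, H2AC1 and H2BC1, between 25723397 and 25727345. On chromosome 1 there were 11 members between 149782689 and 149887965, and the pair H2AC25 and H2BC26 between 228434777 and 228463104. H4C16 stood alone on chromosome 12 between 14767999 and 14771131. There were 12 neighbouring pairs of an H2A and an H2B gene, and the pair of H3C7 and H2BC9, that started back to back with 194 to 979 bp between the starts, and such partners mostly shared a peak. They are therefore not independent, and distinct peaks are given beside genes where this matters.

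Promoter sequences of 64 members were found in RefSeq (GRCh38.p14), as 300 bases from 250 before to 50 after the start. H2AC12, H3C11, H3C12, H4C1 and H4C3 were not matched. The 200 bases before the start are shown for a highly ranked member of each family and for H4C16, which had peaks only under INX-315. These bases carry the elements by which the families differ. H3C10 ranked high through the peak of the adjacent H2BC13 and H2AC13, and had a peak at its own start in 5 of the 8 Rb libraries. Capitals mark, on either strand, the E2F site in each family, the octamer in H2A and H2B, the AC box in H1, the H4 site core in H4, the CCAAT box and the TATA box.
H2BC11 (H2B, chr6:27132796-27132995, minus strand): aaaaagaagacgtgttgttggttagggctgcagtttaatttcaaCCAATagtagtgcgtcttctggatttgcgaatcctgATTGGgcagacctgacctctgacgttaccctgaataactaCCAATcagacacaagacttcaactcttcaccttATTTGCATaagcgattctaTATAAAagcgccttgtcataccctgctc
H2AC17 (H2A, chr6:27893186-27893385, minus strand): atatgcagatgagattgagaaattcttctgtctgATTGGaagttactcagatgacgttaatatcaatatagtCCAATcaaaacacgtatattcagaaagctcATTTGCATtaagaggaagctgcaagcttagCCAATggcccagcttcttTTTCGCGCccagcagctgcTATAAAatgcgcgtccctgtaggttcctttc
H1-2 (H1, chr6:26056471-26056670, minus strand): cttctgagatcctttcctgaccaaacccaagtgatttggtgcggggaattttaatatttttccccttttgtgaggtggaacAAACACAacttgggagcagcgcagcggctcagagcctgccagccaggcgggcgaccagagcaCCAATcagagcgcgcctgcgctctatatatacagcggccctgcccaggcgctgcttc
H3C10 (H3, chr6:27809851-27810050, plus strand): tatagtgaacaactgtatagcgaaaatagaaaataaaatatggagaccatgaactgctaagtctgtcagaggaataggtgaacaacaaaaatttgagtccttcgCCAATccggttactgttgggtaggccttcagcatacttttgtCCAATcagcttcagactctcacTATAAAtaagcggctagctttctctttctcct
H4C12 (H4, chr6:27831561-27831760, minus strand): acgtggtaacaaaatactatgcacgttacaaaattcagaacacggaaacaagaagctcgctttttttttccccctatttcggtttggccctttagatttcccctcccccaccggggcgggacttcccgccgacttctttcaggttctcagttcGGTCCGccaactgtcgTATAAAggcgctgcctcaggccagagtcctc
H4C16 (H4, chr12:14771132-14771331, minus strand): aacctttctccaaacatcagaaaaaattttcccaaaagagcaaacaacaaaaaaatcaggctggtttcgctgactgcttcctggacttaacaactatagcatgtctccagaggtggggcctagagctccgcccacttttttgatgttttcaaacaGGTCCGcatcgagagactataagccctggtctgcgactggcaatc

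The elements sorted by family. Over both strands of the 300 bases, the octamer ATTTGCAT was found at 14 of 18 H2B promoters and 11 of 16 matched H2A promoters, against 1.70% of 15315 protein-coding promoters of the same length. The AC box AAACACA was found at all 6 H1 promoters (4.26% of all promoters) and the H4 site core GGTCCG at 12 of 13 matched H4 promoters (14.6% of all). CCAAT was present at every matched promoter of H1, H2A, H2B and H3 but at 3 of 13 of H4, against 36.6% of all. TATAAA was found at 65.6% of the members and 9.64% of all promoters. The cell cycle element CHR, TTTGAA, was found at 35.9% and 12.1%, respectively. These matches are descriptions of letters and not of bound sites.

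Depth was low. The mean number of fragments over a base, recovered from the peak lists, was between 0.216 and 0.502 in the 8 Rb libraries, and the lists held between 5221 and 17281 peaks. In both lines the lists were longer under INX-315. The IgG2a libraries had no peak at any member. A promoter (2000 bp before to 500 bp after any transcript start) without a listed peak is not shown to be free of Rb, only below what each list called at a q-value of 0.05. Of 4 marker genes of this tumour type, WT1 had a promoter peak in 8 Rb libraries, PAX8 in 5, MSLN in 1 and MUC16 in none. An Rb peak does not measure expression, so this does not check the identity of the lines.

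The first question was how many histone promoters carried Rb in each library. OVCAR-3 had a peak at 23 and 23 members in its DMSO libraries and at 41 and 46 in its INX-315 libraries (replicates 1 and 2). For Kuramochi the counts were 36 and 42 with DMSO, then 48 and 44 with the inhibitor. The INX-315 libraries were above the DMSO libraries in both lines without overlap, as they were for all genes. In the same order the member shares were 33.3%, 33.3%, 59.4% and 66.7% in OVCAR-3, against 30.1%, 37.0%, 56.0% and 64.9% of all genes. In Kuramochi they were 52.2%, 60.9%, 69.6% and 63.8%, against 26.3%, 39.0%, 59.8% and 55.3%. Because partners share peaks, the members with a peak corresponded to fewer distinct peaks. In the same order these numbered 14, 16, 32 and 35 for OVCAR-3, then 25, 32, 39 and 36 for Kuramochi.

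**Figure D1:**
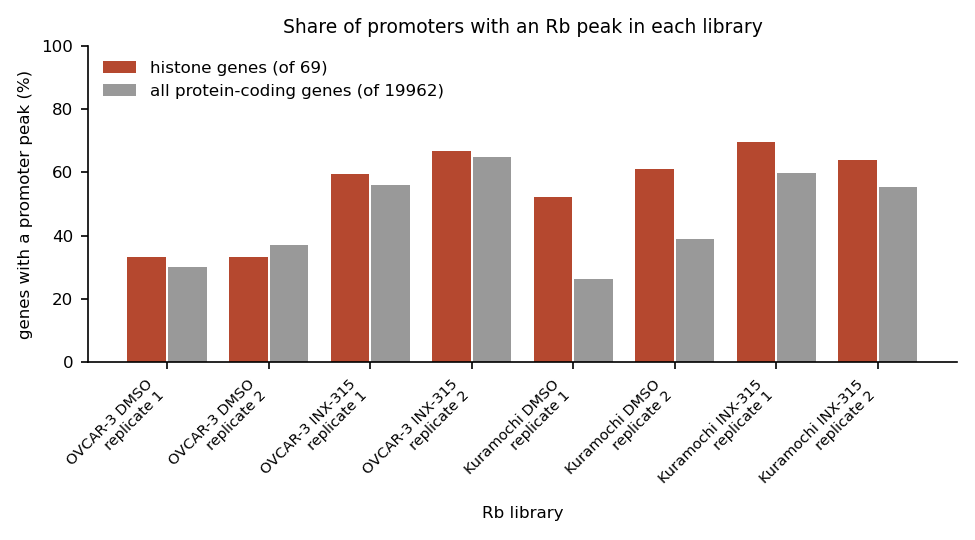
Share of the 69 histone genes (red) and of all 19962 protein-coding genes (grey) with an Rb promoter peak, in percent, for each of the 8 Rb libraries. The histone share stands well above the grey bar in the Kuramochi DMSO libraries, at 52.2% against 26.3% and 60.9% against 39.0%, and close to it in OVCAR-3.

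Under DMSO the lines differed. A gene was called bound when both replicates of a group had a peak. In OVCAR-3, 17 members (24.6%) were bound under DMSO against 26.8% of all genes, so their share was close to the background. In Kuramochi, 36 members (52.2%) were bound under DMSO against 24.9% of all genes. With the inhibitor the lines came closer, with 41 bound members (59.4%) against 55.5% of all genes for OVCAR-3, and 44 (63.8%) against 53.2% for Kuramochi. An exact permutation test of 2 against 2 libraries cannot give a two-sided p below 0.333, so no single count was tested. The Kuramochi DMSO share was above the background in each alternative. It ranged from 40.6% against 24.3% with the summit required inside the promoter to 60.9% against 39.0% without Kuramochi DMSO replicate 1.

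A measure taken from the Kuramochi control library went along with this result. The peak caller compares each peak with a local background, which is taken from the control library and given here as a multiple of the genome-wide background. At member peaks on chromosome 6 its median was 2.41 and 2.52 in the Kuramochi DMSO libraries and 2.63 and 2.54 in the INX-315 libraries. In OVCAR-3 the 4 medians lay between 1.03 and 1.12. Over all peaks of a list the medians lay between 1.34 and 1.43 in all 8 libraries. Other peaks within the span of the 3 larger chromosome 6 loci had raised values in Kuramochi too, between 2.12 and 2.50, whereas peaks elsewhere on chromosome 6 had between 1.41 and 1.44. Member peaks of the large chromosome 1 locus, 1 to 3 in a library, had medians of 1.91, 3.54, 4.54 and 2.78 in Kuramochi. In the OVCAR-3 INX-315 libraries those medians were 2.01 and 2.24. The raised background in Kuramochi thus covered this stretch of chromosome 6 and not only the histone promoters, and these few chromosome 1 peaks had it as well. It rests on 1 library, since the 4 lists of a line were called against the same control and their medians are not independent. Whether more copies of the stretch in Kuramochi added to the number of called peaks was not tested.

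**Figure D2:**
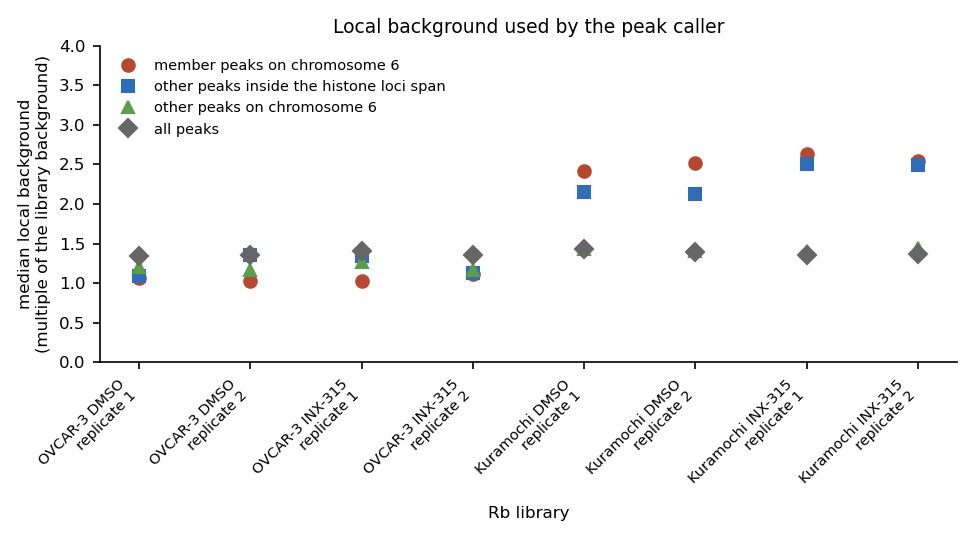
Median local background of the peak caller, as a multiple of the library's genome-wide background, for 4 sets of peaks in each Rb library. The libraries of a line share 1 control library. In Kuramochi the member peaks on chromosome 6 (circles) and the other peaks in the same span (squares) lie above 2, and the remaining peaks lie near 1.4, whereas in OVCAR-3 all sets lie between 1.03 and 1.40.

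Fold enrichment divides by this local background, after a constant is added to both sides, and so allows for it in part. Its median over the member peaks of chromosome 6 was 7.21, 6.95, 8.96 and 14.1 across the OVCAR-3 libraries (both DMSO replicates first), against 6.44, 6.52, 8.79 and 10.9 over all peaks. The Kuramochi medians were 7.31, 8.47, 11.9 and 12, against 6.63, 6.52, 8.64 and 8.02. Member peaks of chromosome 6 thus stood above the median of each list. Set against promoter peaks alone, all member peaks stood above in Kuramochi (11.6 and 11.1 against 10.3 and 9.05 with the inhibitor) but below in the OVCAR-3 INX-315 libraries (8.38 and 11.3 against 9.70 and 14.1).

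The genes behind the difference between the lines were mostly genes that OVCAR-3 acquired under the inhibitor, among the members as among all genes. Bound in Kuramochi under DMSO, with no DMSO peak in OVCAR-3, were 12 members (H2AC6, H2AC7, H2AC14, H2AC20, H2BC4, H2BC7, H2BC14, H3C1, H3C4, H4C3, H4C9 and H4C11), whereas 2.15% of all genes had this pattern. These genes were fewer places, since H2AC6 with H2BC4, H2AC7 with H2BC7 and H3C4, and H2AC14 with H2BC14 shared regions. The shared Kuramochi DMSO peaks of H2AC14 and H2BC14 were small, with 6 and 4 fragments at the summit in replicates 1 and 2. Of the 12, 2 had OVCAR-3 DMSO peaks just past the window. H3C1 counted through the wide Kuramochi peak of its neighbour H4C1, and the OVCAR-3 DMSO peaks of H4C1 began 781 and 651 bp after the H3C1 start. H2AC20 had an OVCAR-3 DMSO replicate 1 peak from 1270 bp after its start. Of the same 12, 9 were gained in OVCAR-3, that is, had a peak in both INX-315 libraries and in no DMSO library. Over all genes, 362 of the 429 with this pattern were gained there, so the gain is not particular to the members. The pair H2BC4 and H2AC6 is an example. OVCAR-3 listed no DMSO peak for it, and fold enrichments of 10.4 and 18.3 once treated. Kuramochi already had 4.84 and 6.58 at the shared region of the pair with DMSO, then 11.9 and 6.40 with the inhibitor. H4C9, an H4 gene beside the H2BC11 pair, went furthest in this direction, with no peak in any OVCAR-3 library and 9.24, 8.46, 14.2 and 11.1 in the Kuramochi libraries.

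The reverse pattern was seen at 2 members, against 2.72% of all genes. H3C8 and H2BC10, neighbours on chromosome 6, shared their strongest peaks and reached 7.21, 9.22, 13.0 and 25.8 across the libraries of OVCAR-3. They had no peak in any Kuramochi library. H1-3, a linker histone gene, likewise had no Kuramochi peak, against 11.5 and 13.4 in INX-315-treated OVCAR-3. All 3 lie among members that did have peaks in Kuramochi.

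**Figure D3:**
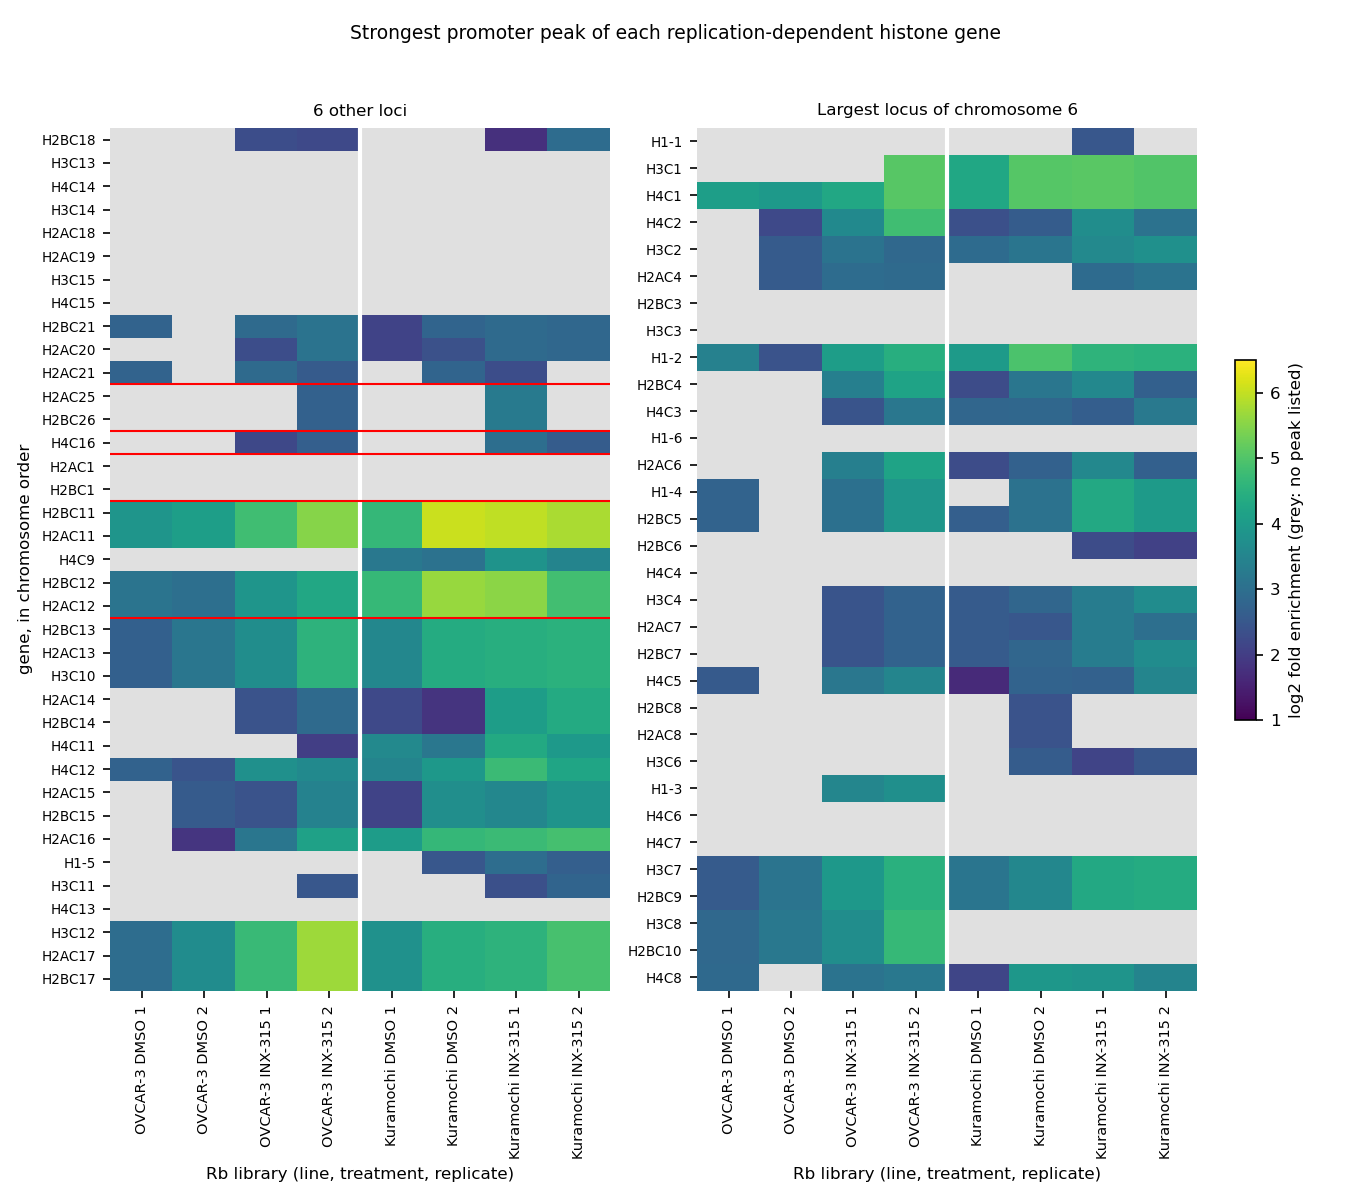
Log2 fold enrichment of the strongest promoter peak of each of the 69 members (rows, in chromosome order, red lines between loci) in the 8 Rb libraries (columns), with grey where no peak was listed. The Kuramochi DMSO columns hold more coloured cells than the OVCAR-3 DMSO columns, and 16 rows are grey throughout.

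Gain and loss under INX-315 were then counted. For OVCAR-3 the gain was 12 members (17.4%), while 16.2% of all genes were gained, and the loss 0 members, with 0.00501% of all genes. For Kuramochi the gain was 5 members (7.25%), with 14.0% of all genes, and the loss 0, with 0.0150%. Fewer members were free to be gained in Kuramochi. Of the members without a DMSO peak, 12 of 40 became bound in both treated libraries of OVCAR-3 (30.0%, and 27.1% of all such genes), and 5 of 27 in Kuramochi (18.5%, and 23.5%). These shares were near the background in OVCAR-3 and somewhat below it in Kuramochi. Retention was complete by this measure, since all 17 members bound under DMSO in OVCAR-3 and all 36 in Kuramochi had a peak in both INX-315 libraries. It was nearly complete over all genes too, with 5332 of 5352 kept in OVCAR-3 and 4952 of 4961 in Kuramochi. When the lists of a line were cut to equal length, 3 Kuramochi members (4.35%, and 0.967% of all genes) counted as lost and 0 as gained (2.03% of all genes), and 4 OVCAR-3 members (5.80%, and 2.33% of all genes) as gained, so the counts of gain depend on list length. Without Kuramochi DMSO replicate 2 or INX-315 replicate 2, 8 members counted as gained in Kuramochi (11.6%, against 27.0% and 19.9% of all genes). Without Kuramochi DMSO replicate 1, 2 counted as lost (2.90%, against 0.346% of all genes).

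The OVCAR-3 gains were H2AC6, H2AC7, H2AC14 and H2AC20 of H2A, H2BC4, H2BC7, H2BC14 and H2BC18 of H2B, H3C4, the H4 genes H4C3 and H4C16, and H1-3. Of these, H1-3 was gained only by the edge of the promoter window, and H2AC20 had the DMSO replicate 1 peak named above, with a fold enrichment of 6.72. For H1-3, the OVCAR-3 DMSO libraries had peaks from 735 bp and from 741 bp after the start. These began just past the 500 bp that counted and had fold enrichments of 6.02 and 5.99. The Kuramochi gains were H2AC4, H2BC6, H2BC18, H3C11 and H4C16. H2AC4 had Kuramochi DMSO peaks more than 1000 bp after its start, at the neighbouring H3C2.

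Gained in both lines were H2BC18 and H4C16, against 5.56% of all genes. H2BC18, at the edge of the chromosome 1 locus, had no DMSO peak and, with the inhibitor, 4.90 and 4.63 in OVCAR-3, then 3.4 and 7.75 in Kuramochi. H4C16, the solitary H4 gene on chromosome 12 whose promoter is printed above, had 4.59 and 6.34 in OVCAR-3, then 7.97 and 6.10 in Kuramochi. These are small peaks. The H4C16 summits lay 67, 301, 857 and 319 bp after the start whose promoter is printed, and the third of them, from Kuramochi replicate 1, was at another annotated start of the gene. The summits of H4C16 held 5, 8, 11 and 7 fragments in these 4 libraries.

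Across the 8 Rb libraries, 15 members (21.7%) had a peak in every one, against 18.8% of all genes, and 16 (23.2%) in none, against 31.2%. The 15 were H1-2 of H1, H2AC11, H2AC12, H2AC13 and H2AC17 of H2A, H2BC9, H2BC11, H2BC12, H2BC13 and H2BC17 of H2B, H3C7, H3C10 and H3C12 of H3, and H4C1 and H4C12 of H4. Every family was thus represented. Of the 26 members in back-to-back pairs, 10 were among the 15, and of the 43 others 5 were. The 5 genes of the locus near 27.1 Mb on chromosome 6 included 4 of the 15, and H4C9 was the exception.

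The members ranked highest in each family were described in every library, OVCAR-3 before Kuramochi, DMSO before the inhibitor and replicate 1 before replicate 2. The pair H2BC11 and H2AC11 had the strongest shared peak, with fold enrichments of 14.5, 17, 28.0, 45.5, 25.4, 66.3, 63.2 and 55.4. Both OVCAR-3 INX-315 values stood above the DMSO values, while the Kuramochi treatments overlapped in fold enrichment. The overlap depended on the measure. As multiples of the genome-wide background, the Kuramochi summits stood at 115 and 284 with DMSO and at 311 and 347 with the inhibitor, without overlap. H2AC17 and H2BC17 shared a peak of up to 3089 bp with H3C12, an H3 gene next to them, with 7.79, 12.8, 26.6, 51.6, 13.7, 21.8, 23.4 and 29.9. Here the treatments did not overlap in either line, but different places were compared. The DMSO summits lay 695 to 1173 bp from the INX-315 summits in OVCAR-3 and 1443 to 1525 bp in Kuramochi. H4C1 had 16.9, 15.7, 19.6, 33.8, 19.4, 33.2, 34.0 and 32.0, again with overlap in Kuramochi. As multiples of the genome-wide background its Kuramochi values, 177 and 303 with DMSO and 336 and 343 with the inhibitor, did not overlap.

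H4C12 had 6.64, 5.40, 13.5, 12.2, 11.1, 15.2, 27.0 and 18.9, and its treatments were separate in both lines. The share of all regions that separated in this way was not counted. Among linker histones H1-2 ranked first, with 10.7, 5.33, 16.8, 21.8, 16, 30.7, 23.8 and 22.7. H1-4 was next and had no promoter peak in OVCAR-3 DMSO replicate 2 and Kuramochi DMSO replicate 1, although the latter had a peak (6.36) that began 75 bp past the window. Its other values were 6.69, 8.2 and 14.8 in OVCAR-3, then 8.47, 20.1 and 15.9 in Kuramochi. H3C10 had 6.44, 8.95, 12.9, 23.4, 11.6, 20.8, 21.7 and 22.8, but these were the values of the peak at the adjacent H2BC13 and H2AC13, which reaches into its promoter window. A peak at the start of H3C10 itself was listed in 5 libraries, with its highest fold enrichment, 18.3, in OVCAR-3 INX-315 replicate 2.

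**Figure D4:**
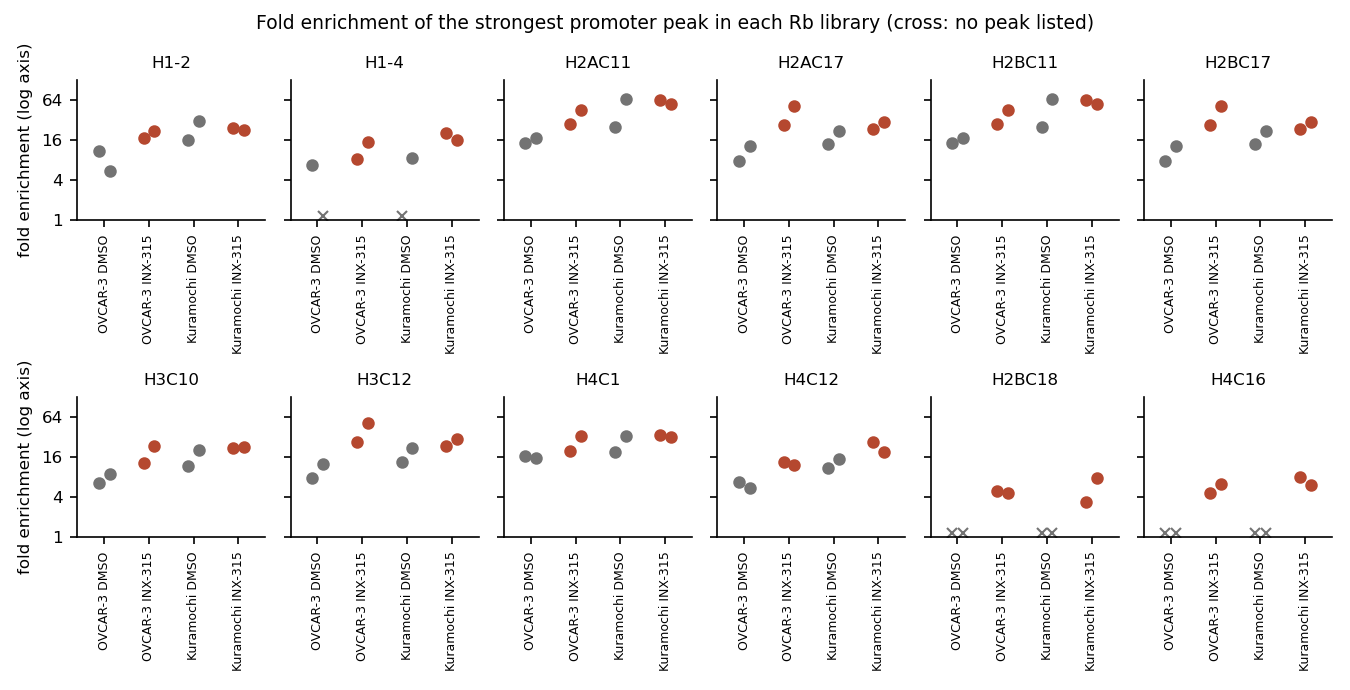
Fold enrichment (log axis) of the strongest promoter peak in each Rb library for the 2 highest-ranked members of each family and the 2 members gained in both lines, with DMSO in grey, INX-315 in red and a cross where no peak was listed. H2AC11 with H2BC11, and H2AC17 with H2BC17 and H3C12, share their peaks and therefore show the same points.

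Where a peak was called in all libraries, its height could be tested. Overlapping peaks of the 8 Rb libraries were merged into 22760 regions, of which 41 touched a member promoter and 8 of those had a peak in every library. Heights were the fragments at the summit as multiples of the genome-wide background. Where a merged region held several summits, the highest counted in each library, wherever in the region it lay. Heights were compared with limma over 3033 regions, with Benjamini-Hochberg adjustment over all of them. The median over the 8 member regions was 1.65 in OVCAR-3 and 0.88 in Kuramochi on the log2 scale (INX-315 minus DMSO), against 1.78 and 1.52 over all regions. Almost all regions rose on this scale, so the call itself does not set the members apart. For OVCAR-3 8 of 8 passed in the upward direction, against 97.0% of regions, for Kuramochi 5 of 8 against 92.2%, and for the mean of both lines 8 of 8 against 99.4%, but 0 in each after the centring described next.

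Relative to all regions the Kuramochi changes stood low, between the percentiles 1.7 and 32.7 of all changes. When heights were centred on the median of each library, 0 member regions were higher and 3 were lower in Kuramochi (1.32% and 4.39% of all regions), and 0 were higher and 1 was lower in OVCAR-3 (1.98% and 5.67%), and the mean of both lines was negative at all 8. A wider set was available in each line alone, from regions with a peak in its 4 libraries. In OVCAR-3 10 of 10 member regions passed as higher, against 96.2% of 4745 regions. In Kuramochi all 23 estimates were positive and 11 passed, against 89.6% of 4375 regions, with a median of 0.86 on the log2 scale against 1.49 over all. Among the 11 were H3C7 with H2BC9 (1.31 ± 0.45 SE, limma adjusted p = 0.00538) and H4C12 (1.20 ± 0.45 SE, limma adjusted p = 0.00968), whose 4 Kuramochi summits lay within 183 and 81 bp. The largest estimate was at H2AC14 with H2BC14, with heights of 13.5, 10.5, 59.3 and 116, but there the DMSO summits lay 298 to 490 bp from the INX-315 summits and 1 DMSO peak did not overlap 1 of the INX-315 peaks, so different places were set against each other.

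Without centring, the largest changes for the mean of both lines were at the region of H2AC17, H2BC17 and H3C12. Its heights were 30.3, 37.9, 114 and 181 in OVCAR-3, then 60.7, 103, 143 and 208 in Kuramochi, and the log2 change was 1.61 ± 0.30 (SE, limma adjusted p = 2.35e-07). These heights came from different places in the merged region. The DMSO summits lay 695 to 1173 bp from the INX-315 summits in OVCAR-3 and 1443 to 1525 bp in Kuramochi, so this value compares the highest point of the region and not a single site. In the other 7 regions the nearest DMSO and INX-315 summits of a line were 0 to 229 bp apart, and the farthest up to 946 bp. The region of H3C7 and H2BC9 followed with 1.60 ± 0.31 (limma adjusted p = 3.17e-07). Next came H2AC13, H2BC13 and H3C10 with 1.32 ± 0.31, H1-2 with 1.26 ± 0.31, and H2AC11 with H2BC11 with 1.21 ± 0.29 (limma adjusted p = 2.03e-05, 4.81e-05 and 3.36e-05). The smallest was at H4C1, whose region reaches H3C1, with 0.74 ± 0.29 (limma adjusted p = 0.0106), a call that did not hold without OVCAR-3 INX-315 replicate 2 or without Kuramochi DMSO replicate 1 (limma adjusted p = 0.0546 and 0.0533). It had the heights 58.6, 53.8, 91.4 and 124 in OVCAR-3, then 177, 303, 336 and 343 in Kuramochi. In Kuramochi alone the regions of H1-2 (0.75 ± 0.43), H2AC12 with H2BC12 (0.50 ± 0.43) and H4C1 (0.55 ± 0.41) did not pass (limma adjusted p = 0.0869, 0.255 and 0.180).

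The difference between the lines was also tested in the same fit. All 8 member regions changed less in Kuramochi than in OVCAR-3, by a median of -0.76 on the log2 scale, against -0.26 over all regions. That median was -1.34 without Kuramochi DMSO replicate 1 and -0.28 without Kuramochi DMSO replicate 2, and the Kuramochi median itself 0.34 and 1.47. None passed, with limma adjusted p-values of 0.998 to 0.999, and in limma 0 of all 3033 regions passed, although 3 were higher and 85 lower at an unadjusted p under 0.05. The widest estimate was -1.01 ± 0.61 at H1-2 and the narrowest -0.01 ± 0.61 at H4C12. The Kuramochi call rests on single libraries. Without Kuramochi DMSO replicate 1 or without Kuramochi INX-315 replicate 2, 0 of 8 regions passed there, without Kuramochi DMSO replicate 2, 8 of 8 did, and without OVCAR-3 DMSO replicate 1 or 2, which share the spread estimate, 3 did.

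**Figure D5:**
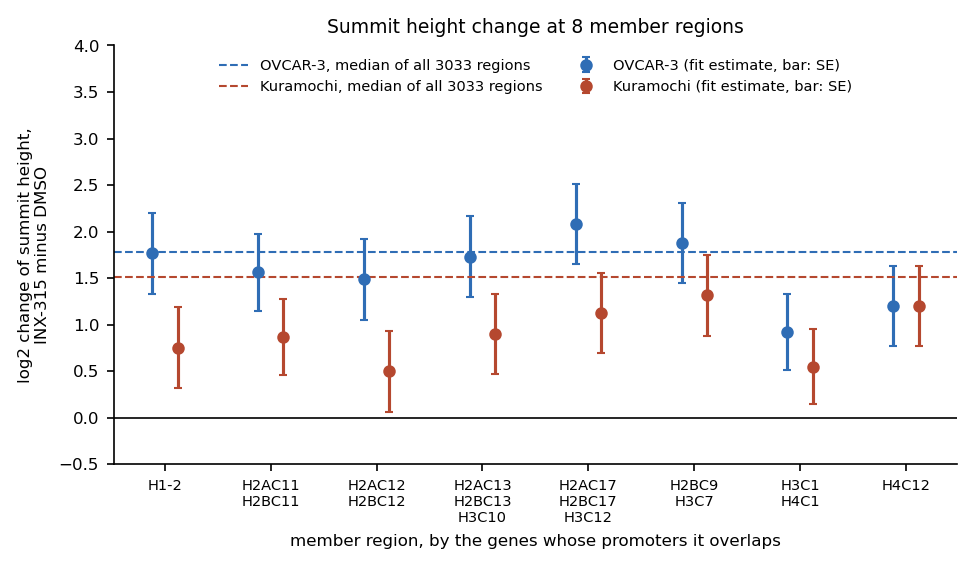
Log2 change of summit height (INX-315 minus DMSO, limma estimate, bars are SE) at the 8 member regions with a peak in all 8 Rb libraries, in OVCAR-3 (blue) and Kuramochi (red). Dashed lines give the median of all 3033 regions, 1.78 and 1.52, and every red point lies below its line. After centring on each library's median all 8 mean changes were negative.

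Rb summits at histone genes mostly lay after the start. In 35 of the 41 regions the strongest summit lay between 100 bp before and 300 bp after the nearest member start, with a median of 122 bp after it, but most of these strongest summits were from INX-315 libraries. By library the share of member peaks in that window was 57.1%, 56.2%, 64% and 56.2% in the DMSO libraries (OVCAR-3 first), against 63.4% to 65.0% of all promoter peaks. In the INX-315 libraries it was 65.6%, 88.6%, 92.3% and 80.6%, against 66.3% to 68.4%. By library the median over member peaks was 28.5, 224, 146 and 117 bp after the start for OVCAR-3, then 169, 120, 120 and 100 bp for Kuramochi. For all promoter peaks the median lay between 2.00 bp before and 17 bp after the nearest protein-coding start. The strongest summits of H1-2, H2BC12 and H4C8 lay further downstream, at 842, 599 and 726 bp after the start, and that of H4C8 was nearer to the start of a lncRNA gene. H1-2 and H2BC12 are short genes on the minus strand. Their summits, at 26055628 and 27146256, lay past the annotated gene ends at 26055740 and 27146361.

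The E2F site (TTTGGCGC, TTTCCCGC, TTTGCCGC or TTTCGCGC on either strand) was found in the 300-base promoters of 16 of 64 members (25.0%), against 4.50% of all promoters. It was present at 8 of the 12 matched members with a peak in all 8 Rb libraries, at 6 of 36 with a peak in some, and at 2 of 16 with none, H4C7 and H4C13. Among all genes with a peak in all 8 libraries, 9.24% had it, and among those with none 1.88%. The 8 members were H2AC11, H2AC13, H2AC17, H2BC11, H2BC12, H2BC13, H2BC17 and H3C7. They came from 5 places, since the windows of back-to-back partners overlap. In H2AC17 the site lay from -50 to -43 bp, between a CCAAT box and the TATA box, and the match of H2BC11 lay outside its printed bases. H1-2 and H4C12 had peaks in all libraries without these letters in the window. So did H2BC9, which in OVCAR-3 DMSO replicate 2 counted through the peak of H3C7. H3C10 lacked the letters too, but counted in all libraries through the peak of H2AC13 and H2BC13, which have the site.

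Of the 16 members without any peak, 7 were in the chromosome 1 locus. They were H3C13, H3C14 and H3C15, H4C14 and H4C15, and H2AC18 and H2AC19. This stretch exists as near-identical copies. The 300-base promoters of H4C14 and H4C15 had 0 differences. All stretches of 50 bases within 500 bp of the start occurred more than once on the searched chromosomes at 6 of the 7 genes, and 72.9% did at H3C13. No other member had this for every stretch, and for members with a peak the median was 0.735%. Repeated sequence is not a bar in itself, since H2BC18 had peaks with 59.9% repeated and H4C12 had a peak in every library with 43.3%. How reads with several equal matches were treated is not given in the sources used here, so the absence of peaks at these 7 genes cannot be read as absence of Rb.

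The other 9 were largely unique sequence. At most 6.83% of their stretches were repeated, and 6 of them had none. They were the pair H2AC1 and H2BC1 of the outermost chromosome 6 locus, best known from the testis, the linker gene H1-6, which is also a testis gene, H2BC3 and H3C3, and the H4 genes H4C4, H4C6, H4C7 and H4C13. With the chromosome 1 genes counted in, members without a listed peak were 6 of 15 in H4, 4 of 13 in H3, 3 of 17 in H2A, 2 of 18 in H2B and 1 of 6 in H1. Over all genes the share was 31.2%. The counts of H4, H3 and H2A include the 7 genes of repeated sequence, so they do not rank the families by Rb.

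Genes that activate histone transcription or process histone mRNA, together with CDK2 and the cyclin genes CCNE1 and CCNE2, were set beside the members. Of these 15 genes, OVCAR-3 had 9 bound with DMSO and 14 with the inhibitor, Kuramochi 10 and 13, and 8 had a peak in every Rb library. NPAT, the activator of histone transcription, reached 16.6, 17.7, 30.4 and 53.5 in OVCAR-3, then 17.9, 41.0, 89.2 and 62.0 in Kuramochi. The treatments did not overlap in either line. SLBP, which binds the stem-loop of histone mRNA, had 26.3, 32.2, 51.9 and 95.3, and then 30.2, 26.8, 53.8 and 42.6. CASP8AP2, a partner of NPAT in the histone locus body, HINFP, POU2F1, CDK2 and the cyclin genes CCNE1 and CCNE2 were the others with a peak in every library. The fewest libraries were at LSM10 of the U7 snRNP (2), CSTF2 of the cleavage machinery (4) and LSM11 of the U7 snRNP (5). Of 11 genes of replication-independent histone variants, OVCAR-3 had 7 bound with DMSO and 10 with the inhibitor, and Kuramochi 6 and 9. The strongest was H2AZ2, with 27.9, 34.1, 43.8 and 64.4 in OVCAR-3, then 40.8, 65.2, 85.4 and 63.3 in Kuramochi.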

How the data were processed

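Rb and IgG2a CUT&RUN libraries of OVCAR-3 and Kuramochi cells were grouped by their labels into 4 Rb groups of 2 and 1 control per line. The authors aligned reads to hg38 with Bowtie2 2.3.4.1, removed yeast, mitochondrial and blacklisted reads, kept duplicates, and called peaks per library with MACS2 2.2.7.1 against the IgG2a library of the line at a q-value of 0.05. The deposited lists hold the fold enrichment, the −log10 p-value and the −log10 q-value written by the authors' caller. The fold enrichment is a linear ratio of fragments at the summit to local background, with 1 added to both. The genome-wide background was below 1 fragment in every library. The listed ratios therefore also rise with depth and are not plain multiples of the background across libraries. Fragments at the summit were recovered from the fold enrichment and p-value within a relative tolerance of 3e-05, for at least 98.6% of peaks. Heights are multiples of the genome-wide background of the library.

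Peaks overlapping a promoter by at least 1 bp were counted. Heights were compared with limma 3.58.1 (R 4.3.3), with 4 group means, variance trend and a threshold of 0.05 on the adjusted p, and the fit was tested on simulated data. The differential count test of the study works on aligned reads, not used here. Members, lists and motifs were chosen with earlier results of these data known. Named were the 2 members of each family with the highest mean rank, those gained in both lines or lost in any, the 5 regions of largest change past the threshold, and members without a peak; others, such as H4C9, H3C8 and H2BC10, were chosen after their values were seen. Alternatives covered the q-value, summit, window, canonical start, list length, scaling, variance trend, pseudocount, replicate block and each library left out. The labels do not say whether replicate numbers pair libraries. Replicates were separate biological replicates per the methods. The limma p-values rest on a spread between these libraries that is shared across regions. The SE was nearly the same at every member region, 0.406 to 0.434 within a line. Small p-values therefore do not measure how well the 2 replicates of a group matched at the named region.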

Additional observations from a re-analysis of the deposited data

How the results depend on the processing

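After trimming the lists to equal length, 6162 peaks in OVCAR-3 and 5221 in Kuramochi, 20 members were bound under INX-315 in OVCAR-3 (29%, and 29% of all genes) and 26 in Kuramochi (37.7%, and 25.0%), 4 and 0 were gained (5.80% and 0%, and 2.33% and 2.03% of all genes), and 3 were lost in Kuramochi (4.35%, and 0.967%). With the summit required inside the promoter, 8 members were gained in Kuramochi (11.6%, and 13.7% of all genes). Leaving out single libraries gave 5 to 8 gained members there (15.3% to 27.0% of all genes) and 0 to 2 lost members (0.0250% to 0.346% of all genes). The number of member regions that rose was 0 in OVCAR-3, 0 in Kuramochi and 0 for the mean of both lines after centring on the median of each library. In Kuramochi it was 0 with fold enrichment as listed and 11 in the fit of that line alone, and it ran from 0 to 8 when a library was left out. Centring turned the mean change negative at every member region, to -0.44 at H1-2, -0.48 at H2AC11 and H2BC11, -0.70 at H2AC12 and H2BC12, -0.38 at H2AC13, H2BC13 and H3C10, -0.087 at H2AC17, H2BC17 and H3C12, -0.10 at H2BC9 and H3C7, -0.96 at H4C1 and -0.50 at H4C12 (log2 scale), of which those at H2AC11, H2AC12 and H4C1 passed (limma adjusted p = 0.0211, 0.00438 and 1.14e-05). With fold enrichment as listed, the mean changes at H2AC12 with H2BC12 and at H4C1 no longer passed (limma adjusted p = 0.129 and 0.128). With the replicate block, 8 member regions rose in OVCAR-3, 7 in Kuramochi and 8 for the mean. Deviations of same-numbered libraries correlated by -0.04 in OVCAR-3 and -0.01 in Kuramochi, so the numbers gave no sign of pairing. The other 89 of 108 counts were within 1.5 times the reported ones. Depth limits these data, since a summit with 5 fragments was already a called peak.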

Other observations

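The stretches of chromosomes 1 and 6 between the histone genes hold 17 other protein-coding genes. OVCAR-3 had 2 of them bound with DMSO and 7 with the inhibitor, Kuramochi 5 and 8, and 6 had no peak in any Rb library. ZNF184 and PRSS16 had a peak in every Rb library. PRSS16, a serine protease gene best known from the thymus, reached fold enrichments of 13.0, 17.2, 22 and 35 in OVCAR-3, then 7.73, 13.3, 20.4 and 10.4 in Kuramochi. The butyrophilin genes of the same span were mostly without peaks. BTN1A1, BTN3A1 and BTN3A2 had none, BTN2A1 and BTN3A3 had 1 each, in OVCAR-3 INX-315 replicate 2, and BTN2A2 had 3.

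BOLA1, next to the chromosome 1 members H2BC21 and H2AC20, had 16.5, 23.5, 39.1 and 32.2 in the Kuramochi libraries, above any histone gene of that locus. In OVCAR-3 it had 6.72, 7.44 and 8.5 and no peak in DMSO replicate 2, and these were the peaks that it shared with the histone genes.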
